A study of Saccharomyces cerevisiae with 6 samples.

Results

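Poly(A) RNA of budding yeast was examined for 9 genes of oxidative stress defence out of 5781 protein-coding genes with a value: SRX1, TRX2, TSA1, TSA2, CTT1, GPX2, AHP1, SOD1 and SOD2. The genes were chosen by name and function, and each was read from the 50-base coverage bins that the deposited table labels as its ORF, on the sense strand and in the columns scaled to a spike-in. The 6 libraries fall into a wild type, an rtt109 deletion and an hst3 hst4 deletion, with 2 libraries in each. Rtt109 puts an acetyl group on a core-domain lysine of histone H3 of newly made chromatin, and the deacetylases Hst3 and Hst4 take it off.

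Per the labels, cells of every group grew exponentially in the rich medium YPD, and fission yeast RNA was mixed into each extract at a fixed mass ratio. Every strain carried URA3::GDP-TK(7x), a human nucleoside transporter at AUR1c and a deletion of BAR1. All of them also had the alleles can1-100, ura3-1 and trp1-1, together with leu2-3 112 and his3-11 15. The wild type was MATa, ade2-1::ADE2 and Rpb3-3HA::TRP, the latter a tagged subunit of RNA polymerase II. The hst3 hst4 strain had the same restored ADE2 and the tag, was labelled MATalpha, and carried Δhst3::HygMX with Δhst4::NatMX. The rtt109 strain was MATa with ∆rtt109::Kan, the unrestored ade2-1 allele, no tagged polymerase subunit, and the further marks GAL, psi+ and RAD5+. Thus the rtt109 strain differed from wild type in more than the deletion, and these differences cannot be told apart from it. Nothing in the labels says whether the libraries of a group came from separate cultures, so p-values measure only the spread between these libraries, which may be technical.

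The cell removes superoxide with superoxide dismutases, which turn it into hydrogen peroxide, and removes the peroxide with catalases and with thiol peroxidases. Peroxiredoxins reduce peroxide through a reactive cysteine and are recycled by thioredoxin, and glutathione peroxidases do the same through thiols. A peroxiredoxin whose cysteine has been oxidised too far is repaired by sulfiredoxin. In budding yeast the transcription factors Yap1 and Skn7 turn on many of these genes on exposure to peroxide, and Msn2 and Msn4 turn on a wider stress programme that includes the cytosolic catalase.

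The libraries had a summed coverage of 474278 to 784679. The commonest coverage value above 0 lay between 0.00397 and 0.0124, so a gene of low level rests on few reads, whose number is unknown. Over 2673 long genes, the log2 ratio of coverage at the end to that at the start of the ORF had a median of 0.76 and 0.78 in wild type, against 1.12 and 0.71 without RTT109 and 1.24 and 0.85 without HST3 and HST4. RTT109 had a mean coverage of 0 and 0.00132 in its own deletion, against 0.778 and 0.845 in wild type. The hst3 hst4 libraries had HST3 at 0.000743 and 0 and HST4 at 0.00399 and 0, while BAR1 was listed at 0 in all 6 libraries. The a-specific receptor gene STE2 had 22.9 and 24.0 in the hst3 hst4 libraries against 15.4 and 31.1 in wild type. The alpha-specific receptor gene STE3 was at 0.0306 and 0.0433 there, against 0.00497 and 0.0163 in wild type. MF(ALPHA)1 was at 0.287 and 0.307 there, against 0.0442 and 0.0277 in wild type. For MF(ALPHA)2 these levels were 0.0552 and 0.0848 against 0.0182 and 0.0333. The strain labelled MATalpha therefore had the a-specific transcripts of an a cell, with alpha-specific transcripts that were low but above wild type. The summed level of 5 a-specific genes was 127 and 157 in wild type, against 61.0 and 76.2 without RTT109 and 216 and 135 without HST3 and HST4. That of 4 alpha-specific genes was 0.601 and 0.612, 0.698 and 0.935, and 1.10 and 1.29 in the same order. SAG1 made up most of the alpha-specific sum in every library.

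The ORF labels of the table were displaced from the coverage. The strand that carried coverage matched the labelled strand best when bins were read at an offset of -100 bases from the labels in 88% of genes, and at -400 bases in 276 genes, all on chromosome 10. Each ORF was therefore read at its own offset, which was estimated from both strands without regard to group. It was -100 bases for 7 of the 9 genes, -150 bases for GPX2 and -400 bases for SOD1. For SOD1 the labelled bins gave 5.31 and 5.43 in wild type, and the realigned bins gave 39.0 and 41.7. The fit with labelled bins called the same number of the 9 genes in each comparison (2, 3 and 0).

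A gene's level was its mean sense coverage per bin, scaled to the spike-in, so levels are per length. Coverage was higher at the end of long ORFs than at their start, so a comparison of levels between genes is only rough. In wild type the 9 genes spanned the range from AHP1 at 46.1 ± 3.30 (SD, n = 2) to SRX1 at 0.0774 ± 0.0239 (SD, n = 2). AHP1 stood at the 97.4 percentile of all genes with a value and SRX1 at the 7.87 percentile. The abundant group was AHP1, SOD1, TSA1 and TRX2, whose wild-type libraries lay between 22.6 and 48.5. Within it, the wild-type ranges of SOD1 (39.0 and 41.7) and TSA1 (32.2 and 41.2) overlapped, and that of TSA1 met that of TRX2 (32.2 and 22.6). SOD2 (4.35 and 4.68) lay above GPX2 (3.43 and 1.81), and GPX2 above TSA2 (0.835 and 0.597). TSA2 lay above CTT1 (0.306 and 0.248), and CTT1 above SRX1 (0.0943 and 0.0605). None of these neighbours overlapped. The place of TSA2 rests on its mean over the whole ORF. Its first 5 used bins had 0.103 and 0.0749 in wild type, against 0.226 and 0.192 in the first 16 of CTT1. The summed level of the 9 genes in wild type was 161 and 157, that in the rtt109 strain 188 and 141 and that in the hst3 hst4 strain 243 and 307. AHP1, SOD1, TSA1 and TRX2 make up most of this sum, so it says little about the genes of low level.

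**Figure D1:**
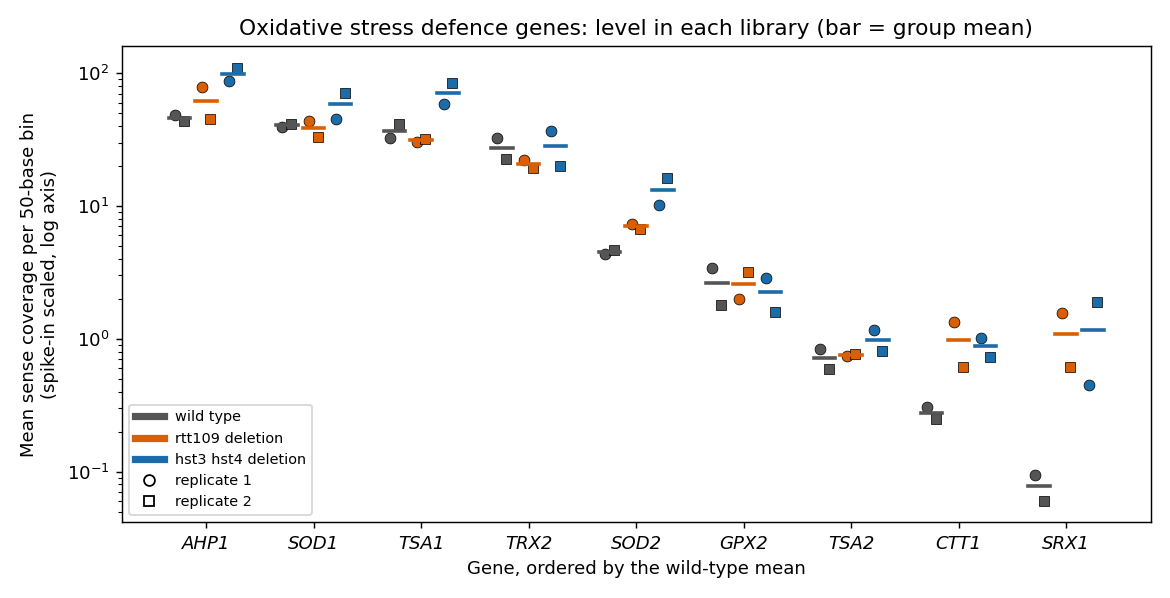
Mean sense coverage per 50-base bin, scaled to the spike-in, on a log axis, for the 9 genes in each of the 6 libraries. Circles and squares are replicates 1 and 2, bars are group means of 2 libraries. CTT1 and SRX1, the genes of lowest ORF mean in wild type, and SOD2 have all 4 deletion libraries above both wild-type libraries. Of all genes tested, 11.5% had both rtt109 libraries above wild type and 21.2% had both hst3 hst4 libraries above it.

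Of the 9 genes, 3 passed the test in at least 1 comparison with wild type: the sulfiredoxin gene SRX1, the cytosolic catalase gene CTT1 and the mitochondrial superoxide dismutase gene SOD2. SRX1 and CTT1 rose in both deletions and SOD2 rose in the hst3 hst4 deletion. No member fell in any comparison. SRX1 entered the test only through its deletion libraries: genes with a mean over the 6 libraries of 0.189 or less were left out, and the wild-type mean of SRX1 was 0.0774. A gene that enters in this way had to differ, so its calls are a description and the counts of members called lend no support to a direction. The test was limma on log2 of the level plus 0.0636, fitted to 5202 genes and all 6 libraries, with a Benjamini-Hochberg adjusted p under 0.05. Against wild type, 2 of 9 members were called in the rtt109 deletion (2 higher, 0 lower), where 3.33% of all genes were called, 2.46% higher and 0.865% lower. For the hst3 hst4 deletion 3 of 9 were called (3 higher, 0 lower), where 2.44% of all genes were called, 2.33% higher and 0.115% lower. At an unadjusted p under 0.05 limma had 2 of 9 members in the rtt109 deletion, where 19.9% of all genes had one, and 5 of 9 in the hst3 hst4 deletion, where 7.94% had one. Both comparisons use the same wild-type libraries. An exact permutation test of 1 gene over 2 against 2 libraries cannot give a two-sided p below 0.333, so each call rests on the spread that limma pools across genes. In bulk RNA, a change in a few cells and a smaller change in every cell cannot be told apart.

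The spike-in scaling sets the zero of these changes. The median log2 fold change of all genes tested was -0.37 in the rtt109 deletion and 0.04 in the hst3 hst4 deletion, each against wild type. With each library centred on its median these became -0.07 and -0.04. The median of the 9 members was 0.09 in the rtt109 deletion and 0.94 in the hst3 hst4 deletion. Relative to the median of all genes, SRX1 stood 3.28 higher, CTT1 1.88 higher and SOD2 1.00 higher on the log2 scale in the rtt109 deletion, and 2.79, 1.41 and 1.46 higher in the hst3 hst4 deletion.

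**Figure D2:**
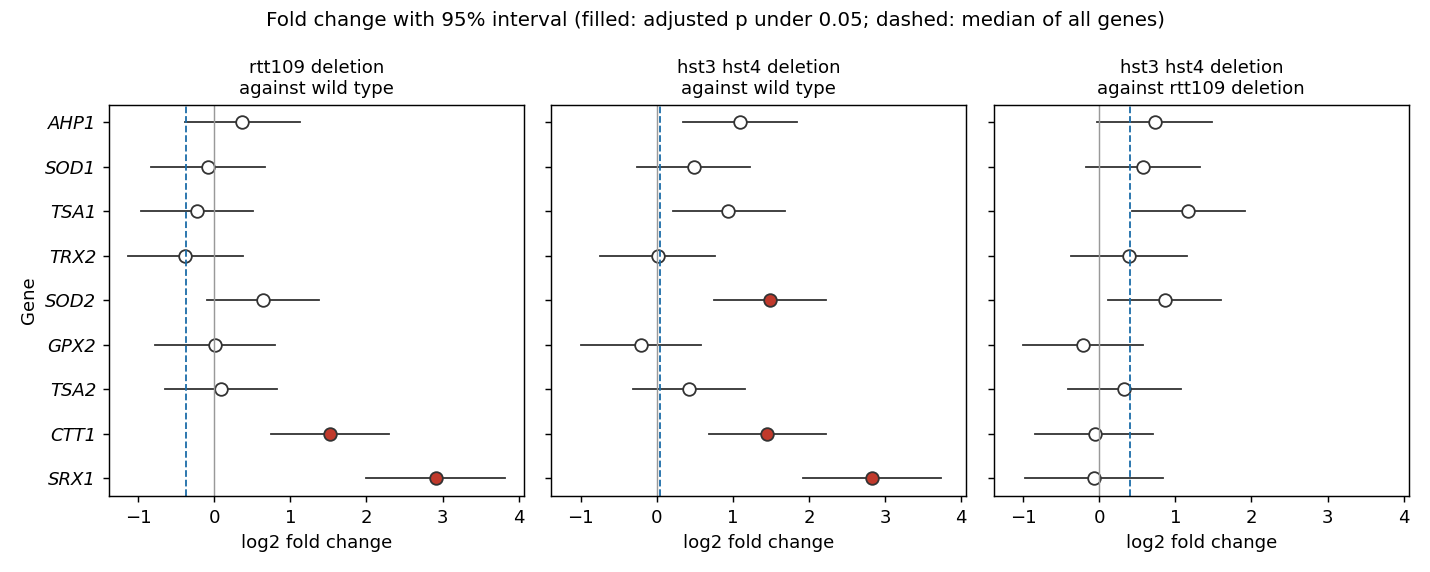
Log2 fold change (x axis) of each of the 9 genes in the 3 comparisons, with 95% intervals from limma; filled points had an adjusted p under 0.05 and the dashed line is the median of all 5202 genes tested. All of the 9 genes but TRX2 and GPX2 stand to the right of the dashed line in both comparisons with wild type. SRX1 and CTT1 are filled in both of these, and SOD2 is filled in the hst3 hst4 deletion against wild type.

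SRX1 (YKL086W, on chromosome 11 at 278281 to 278664 in RefSeq R64, plus strand, 1 coding exon) encodes sulfiredoxin, which restores overoxidised peroxiredoxins. Its level was 0.0943 and 0.0605 in wild type, against 1.57 and 0.611 without RTT109 and 0.445 and 1.89 without HST3 and HST4. All 4 deletion libraries lay above both wild-type libraries, and the libraries within each deletion differed by more than 2-fold. The ratio of means was 14.1 in the rtt109 deletion and 15.1 in the hst3 hst4 deletion, and 1 library moved it much. The log2 fold change of the hst3 hst4 deletion was 1.86 without its replicate 2 and 3.81 without its replicate 1, and that of the rtt109 deletion was 2.27 without its replicate 1 and 3.55 without its replicate 2. With all libraries the log2 fold change was 2.91 ± 0.45 (SE, limma adjusted p = 2.82e-05) in the rtt109 deletion and 2.83 ± 0.45 (SE, limma adjusted p = 7.21e-05) in the hst3 hst4 deletion. The pseudocount is close to the wild-type level, so these log2 values understate the ratio. Between the deletions the difference was -0.07, with a 95% interval of -0.98 to 0.83. The rise ran along the whole ORF: the first 3 used bins had ratios of means of 12.6 and 14.7, and the last 3 had 14.5 and 13.1.

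Without the filter on low genes, with a pseudocount 10 times larger, or without either rtt109 library, neither call of SRX1 passed, with log2 fold changes between 1.21 and 3.55. The call in the hst3 hst4 deletion was also lost with the authors' other scaling (2.80), with each library centred on its median (2.75) and with the rtt109 libraries out of the fit (2.83).

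CTT1 (YGR088W, chromosome 7 at 654634 to 656322 in R64, plus strand) encodes the cytosolic catalase, which splits hydrogen peroxide into water and oxygen. Its level in wild type was 0.306 and 0.248, that in the rtt109 strain 1.33 and 0.611 and that in the hst3 hst4 strain 1.02 and 0.731. The deletion libraries all lay above wild type, and the 2 deletions overlapped. The log2 fold change was 1.52 ± 0.38 (SE, limma adjusted p = 0.0154) in the rtt109 deletion and 1.45 ± 0.38 (SE, limma adjusted p = 0.0260) in the hst3 hst4 deletion, with ratios of means of 3.51 and 3.16. The hst3 hst4 deletion minus the rtt109 deletion was -0.06, with a 95% interval of -0.84 to 0.71. In the rtt109 deletion the call was lost with each library centred on its median (1.81), with 10 times the pseudocount (0.78), without the filter (1.52), with the last 10 bins of the ORF only (1.39), and without wild-type replicate 2 (1.39) or either rtt109 library (0.99 and 2.04). For the hst3 hst4 deletion it was lost under 12 alternatives, at log2 fold changes of 0.72 to 1.58, among them leaving out either wild-type library (1.58 and 1.33), either rtt109 library (1.45) or hst3 hst4 replicate 1 (1.23).

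SOD2 (YHR008C, chromosome 8 at 122889 to 123590 in R64, minus strand) encodes the manganese superoxide dismutase of the mitochondrial matrix. Its level was 4.35 and 4.68 in wild type, against 7.35 and 6.76 without RTT109 and 10.2 and 16.2 without HST3 and HST4. The 3 groups did not overlap and stood in the order wild type, rtt109 deletion, hst3 hst4 deletion. The log2 fold change was 0.64 ± 0.37 (SE, limma adjusted p = 0.303) in the rtt109 deletion and 1.49 ± 0.37 (SE, limma adjusted p = 0.0132) in the hst3 hst4 deletion. The difference between the deletions, 0.86 with a 95% interval of 0.12 to 1.60, had a limma adjusted p of 0.279 and did not pass. The rise of SOD2 in the hst3 hst4 deletion was 2.95-fold over the first 6 used bins and 2.81-fold over the last 6. Its call was lost under 8 alternatives, at log2 fold changes of 1.16 to 1.49. Among them were leaving out wild-type replicate 1 (1.44), hst3 hst4 replicate 2 (1.16) or either rtt109 library (1.49).

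The promoters of the called genes were read from the RefSeq R64 genome, with those of TRX2 and TSA2 beside them as genes that hold the same letters and whose levels did not pass the test. The 500 bases before each ORF were searched on both strands for the Yap1 elements TTACTAA and TGACTAA and for the stress element AGGGG, which Msn2 and Msn4 recognise. No matches overlapped in the 9 genes. TTACTAA was present in 11.8% of 6000 such windows in the genome, TGACTAA in 5.97%, either of them in 17%, and AGGGG in 34.1%. The stretches run 5′ to 3′ on the strand of the gene, with every match in capitals, and were chosen after the matches were seen. A match on the other strand appears as its reverse complement, which for the stress element is CCCCT. They are chr11:277970-278146 (plus strand), chr7:654246-654285 (plus), chr8:123717-123866 (minus), chr7:913392-913454 (minus) and chr4:1365916-1365989 (minus).
SRX1: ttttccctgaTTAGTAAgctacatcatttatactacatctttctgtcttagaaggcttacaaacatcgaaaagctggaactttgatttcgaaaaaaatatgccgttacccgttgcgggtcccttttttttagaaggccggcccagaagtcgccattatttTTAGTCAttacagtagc
CTT1: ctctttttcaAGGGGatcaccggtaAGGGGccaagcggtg
SOD2: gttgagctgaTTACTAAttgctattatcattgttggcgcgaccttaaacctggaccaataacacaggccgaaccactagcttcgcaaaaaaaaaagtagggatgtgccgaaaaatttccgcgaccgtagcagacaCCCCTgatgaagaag
TRX2: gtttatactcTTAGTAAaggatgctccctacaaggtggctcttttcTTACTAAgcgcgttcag
TSA2: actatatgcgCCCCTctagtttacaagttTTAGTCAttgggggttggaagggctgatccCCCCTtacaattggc

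Either Yap1 element was found before 7 of the 9 genes and AGGGG before all 9. SRX1, TRX2, TSA2 and GPX2 held 2 Yap1 elements each, and 1.73% of all windows held 2 or more. AHP1, SOD1 and SOD2 held 1 each, and TSA1 and CTT1 held none. CTT1 and AHP1 held 3 stress elements each. The SRX1 stretch has both Yap1 letter forms, the CTT1 stretch has AGGGG in the forward direction at 378 and at 363 bases before the start, and the SOD2 stretch has 1 match of each kind. TRX2, with a TTACTAA on each strand, had log2 fold changes of -0.38 and 0.01 against wild type. A match is a run of letters in these windows, and binding was not measured.

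The peroxiredoxins and the thioredoxin did not pass the test in any comparison. AHP1 encodes a thiol peroxidase that prefers alkyl hydroperoxides. Its level in wild type was 48.5 and 43.8, that in the rtt109 strain 78.6 and 44.8 and that in the hst3 hst4 strain 87.9 and 110. Both hst3 hst4 libraries lay above the other 4, and the rtt109 libraries lay on both sides of the upper wild-type library. The log2 fold change in the hst3 hst4 deletion was 1.09, with a 95% interval of 0.34 to 1.84 and a limma adjusted p of 0.156.

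TSA1 encodes the main cytosolic peroxiredoxin. Its level was 32.2 and 41.2 in wild type, against 30.4 and 31.9 without RTT109 and 58.2 and 84.5 without HST3 and HST4. The hst3 hst4 libraries were the highest and the rtt109 libraries the lowest, without overlap. The log2 fold change was -0.23 in the rtt109 deletion (95% interval -0.96 to 0.51) and 0.94 in the hst3 hst4 deletion (0.21 to 1.68). The value in the rtt109 deletion turned to 0.07 with each library centred on its median and to 0.23 with the authors' other scaling. Against each other the deletions differed by 1.17 (95% interval 0.43 to 1.91, limma adjusted p = 0.115), which did not pass.

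TRX2 encodes a cytosolic thioredoxin that reduces peroxiredoxins. Its level in wild type was 32.2 and 22.6, that in the rtt109 strain 22.0 and 19.3 and that in the hst3 hst4 strain 36.5 and 20.1. The spread within the hst3 hst4 deletion covered both wild-type libraries, while the rtt109 libraries lay just below them. Its paralog TRX1 had 42.7 and 43.9 in wild type, against 26.2 and 26.3 without RTT109 and 57.5 and 29.6 without HST3 and HST4, and passed in no comparison. The ORFs of TRX1 and TRX2 are 73.0% identical, with a longest identical run of 17 bases, and how reads shared between paralogs were counted is not given in the sources used here.

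TSA2 encodes a second cytosolic peroxiredoxin, usually of low level. Its ORF mean in wild type was 0.835 and 0.597, that in the rtt109 strain 0.747 and 0.769 and that in the hst3 hst4 strain 1.16 and 0.806. The groups overlapped with wild type, and the log2 fold changes were 0.09 (95% interval -0.65 to 0.83) and 0.42 (-0.32 to 1.16). The ORF mean hides 2 different stretches. Over the first 5 used bins, from base 50 to base 300, the coverage was 0.103 and 0.0749 in wild type, against 0.429 and 0.317 without RTT109 and 0.481 and 0.421 without HST3 and HST4. All 4 deletion libraries were above wild type in this stretch, with ratios of means of 4.18 and 5.06. Over the last 5 used bins, from base 350 to base 600, wild type had 1.55 and 1.12, the rtt109 strain 1.06 and 1.22, and the hst3 hst4 strain 1.82 and 1.20. Here the groups overlapped, with ratios of means of 0.853 and 1.12.

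The step inside TSA2 fell between neighbouring bins. In wild type the bin at base 250 had 0.123 and 0.0760 and the bin at base 300 had 0.894 and 0.565, while the bin at base 700, past the ORF, was back at 0.0676 and 0.0597. In the deletions the same step was from 0.486 and 0.362 to 0.755 and 0.770 (rtt109) and from 0.528 and 0.445 to 1.31 and 0.792 (hst3 hst4). The ratio over wild type differed between the first and last part of TSA2 by 4.90-fold in the rtt109 deletion and 4.52-fold in the hst3 hst4 deletion. The next largest of the 9 genes was AHP1, at 1.32-fold and 1.34-fold. TSA2 was singled out after its values were seen, and the stretches were not tested. TSA1 and TSA2 are 78.3% identical over the first 295 bases and 78.6% over the last 295, with a longest identical run of 14 bases in each. Whether reads of TSA1 have a part in the step was not tested.

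**Figure D3:**
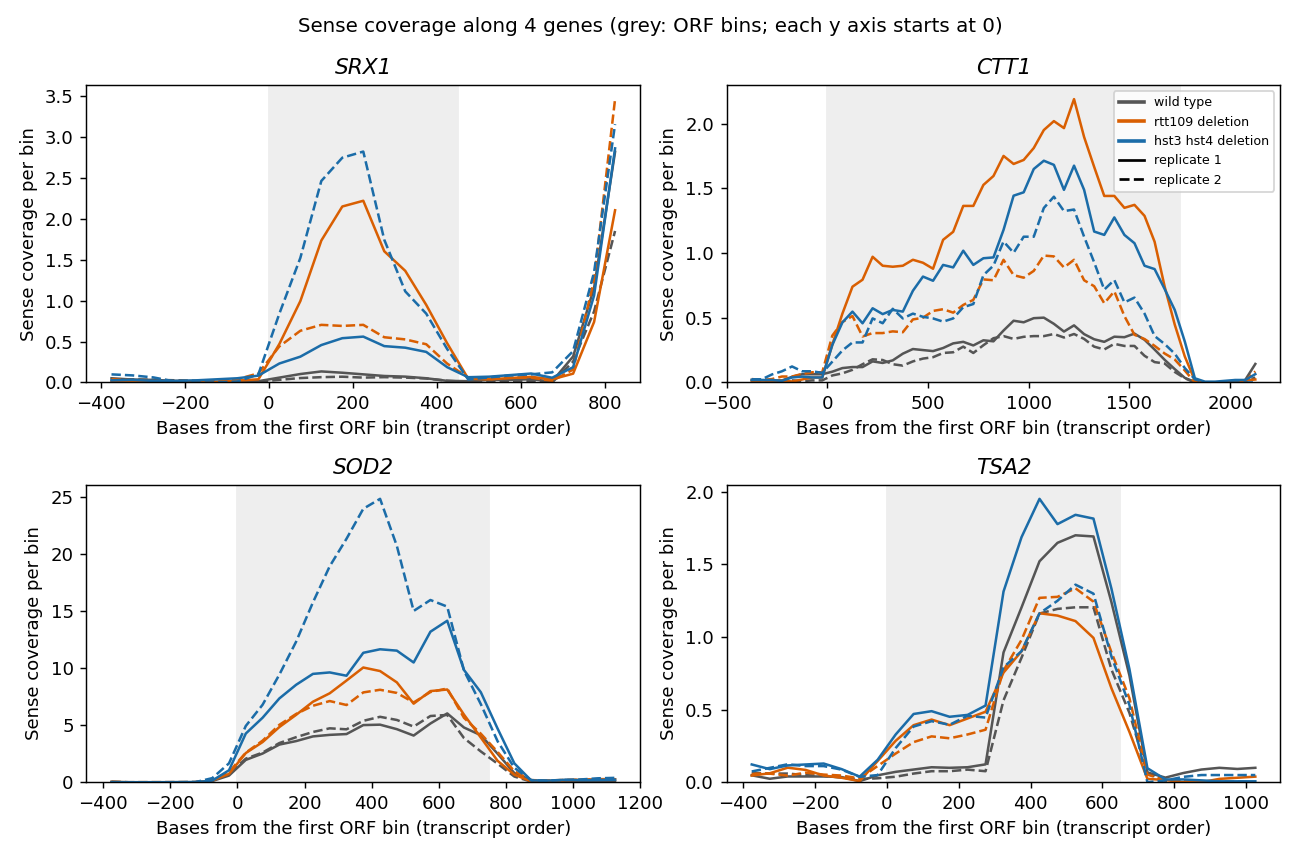
Sense coverage per 50-base bin (y axis, linear from 0) against the distance from the first ORF bin in transcript order, for SRX1, CTT1, SOD2 and TSA2 in 6 libraries, with ORF bins shaded. All 4 deletion libraries lie above wild type in 7 of 7 used bins of SRX1, 32 of 33 of CTT1 and 13 of 13 of SOD2, whereas in TSA2 they do so before base 300 and mix with wild type from there on; the rise at the right edge of the SRX1 panel lies outside its ORF and was not used.

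GPX2 encodes a glutathione peroxidase that uses thioredoxin. Its level was 3.43 and 1.81 in wild type, against 2.00 and 3.16 without RTT109 and 2.89 and 1.58 without HST3 and HST4. All 3 groups overlapped, and the intervals of the log2 fold changes were -0.78 to 0.80 and -1.0 to 0.58 against wild type. The ORF of GPX2 is 69.5% identical to that of HYR1, with a longest identical run of 23 bases, and 57.7% identical to that of GPX1. SOD1, the abundant copper and zinc superoxide dismutase of the cytosol, had 39.0 and 41.7 in wild type, against 43.9 and 33.0 without RTT109 and 45.1 and 71.1 without HST3 and HST4. The hst3 hst4 libraries lay above the other 4. The log2 fold change there was 0.49, with a 95% interval of -0.26 to 1.23. CCS1, which loads copper into Sod1, had log2 fold changes of -0.88 in the rtt109 deletion and 0.12 in the hst3 hst4 deletion, neither past the threshold. For the abundant genes AHP1, TSA1, TRX2 and SOD1 the opposite strand carried 1.44% to 1.55% of the sense coverage in wild-type replicate 1 and 0.584% to 0.849% in hst3 hst4 replicate 2, against at most 0.525% in each of the other 4 libraries. Its part in the results was not tested.

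By overlap alone, both rtt109 libraries lay above both wild-type libraries in 3 of the 9 genes (SRX1, CTT1, SOD2), where 11.5% of all genes tested did, and below them in 2 (TRX2, TSA1), where 48.7% did. Both hst3 hst4 libraries lay above wild type in 6 (SRX1, CTT1, SOD2, AHP1, TSA1 and SOD1), where 21.2% of all genes did, and below in 0, where 9.15% did. SRX1 passed the filter only through its deletion libraries, so its place in the counts above wild type is partly built in. These counts lend no support to a direction. Against the rtt109 deletion, both hst3 hst4 libraries lay above in 5 of the 9 genes (TSA1, TSA2, AHP1, SOD1 and SOD2), where 51.5% of all genes did, and below in 0, where 4.33% did. In that comparison limma called 0 of the 9 genes, where it called 1.5% of all genes, 0.865% higher and 0.634% lower. At an unadjusted p under 0.05 it had 2 of 9 (TSA1 and SOD2), where 15.5% of all genes had one.

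Genes around the 9 were taken from 7 lists by function. Of the thioredoxin and peroxiredoxin system outside the 9, 0 of 8 genes passed in the rtt109 deletion and 1 of 8 rose in the hst3 hst4 deletion. It was PRX1, the mitochondrial peroxiredoxin, at 1.79 and 2.95 in wild type, against 5.32 and 4.24 without RTT109 and 8.73 and 7.23 without HST3 and HST4. Its log2 fold change was 1.76 in the hst3 hst4 deletion (limma adjusted p = 0.00287) and 1.03 in the rtt109 deletion (limma adjusted p = 0.126). The 3 groups of PRX1 stood in the same order as those of SOD2. Part of that order is common, since both hst3 hst4 libraries lay above both rtt109 libraries in 51.5% of all genes tested. The list's median was 0.03 in the rtt109 deletion and 0.49 in the hst3 hst4 deletion.

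Of the glutathione and glutaredoxin system, 1 of 15 genes rose in the rtt109 deletion and 2 of 15 in the hst3 hst4 deletion. The glutathione transferase gene GTT1 went from 1.15 and 1.13 in wild type to 2.69 and 3.19 without RTT109 and to 2.98 and 2.73 without HST3 and HST4 (log2 fold changes 1.31 and 1.28). GTT2, a second glutathione transferase gene, had 0.523 and 0.575 in wild type against 1.57 and 2.12 without HST3 and HST4, a log2 fold change of 1.62 (limma adjusted p = 0.00532), against 0.40 in the rtt109 deletion. The list's median was -0.25 in the rtt109 deletion and 0.30 in the hst3 hst4 deletion. Of the other catalases, peroxidases and copper chaperone, 2 of 5 could be tested, CCP1 and CCS1, and neither passed. CUP1-1, a metallothionein gene, was listed at 0 in every library. CTA1, the peroxisomal catalase gene, was below the filter, at 0.0974 and 0.142 in wild type and at 0.0853 to 0.209 in the deletions.

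Of the regulators of the response, 0 of 11 passed in the rtt109 deletion and 0 of 11 in the hst3 hst4 deletion, with medians of -0.17 and 0.10. In the comparisons with wild type, TPK3 alone of these had an unadjusted limma p under 0.05. That was in the rtt109 deletion, where 19.9% of all genes had one. The 2 smallest p in the rtt109 deletion were those of TPK3 (-0.85), a catalytic subunit of protein kinase A, and MSN2 (-0.64). For the hst3 hst4 deletion the smallest p was that of TPK2 (0.67), which encodes a catalytic subunit of the same kinase. YAP1 had 2.53 and 3.82 in wild type, against 2.75 and 2.78 without RTT109 and 3.46 and 3.22 without HST3 and HST4, so the groups overlapped. Of the other Yap1 targets in drug and peroxide defence, 0 of 8 passed in the rtt109 deletion and 1 of 8 in the hst3 hst4 deletion. It was OYE3, an NADPH oxidoreductase gene, which went from 0.274 and 0.165 to 1.03 and 0.620, a log2 fold change of 1.64 (limma adjusted p = 0.00607). That list's median was -0.17 in the rtt109 deletion and 0.20 in the hst3 hst4 deletion.

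The list of the pentose phosphate pathway and NADPH supply, which feeds reducing power to thioredoxin and glutathione, had 5 of 14 genes higher and 2 lower in the rtt109 deletion, and 4 of 14 higher in the hst3 hst4 deletion. Those 4 were NQM1, SOL4, TKL2 and GND2, which were also among the 5 of the rtt109 deletion, a comparison with the same wild-type libraries. They encode the minor forms of transaldolase, phosphogluconolactonase, transketolase and phosphogluconate dehydrogenase, in that order. The wild-type means of all 4, from 0.0295 to 0.108, were under the filter's limit of 0.189, so they were tested only because of their deletion libraries, and the count of higher genes is partly built in. NQM1 went from 0.0795 and 0.137 in wild type to 1.44 and 0.717 without RTT109 and to 0.940 and 0.632 without HST3 and HST4 (log2 fold changes 2.68 and 2.30). The abundant paralogs did not pass: TAL1 had log2 fold changes of -0.65 and 0.06, TKL1 -0.30 and 0.15, GND1 -0.30 and 0.25, and SOL3 -0.39 and 0.11. These paralogs were named after their values were seen, as were IDP2 and RKI1, which complete the counts. IDP2, the cytosolic NADP isocitrate dehydrogenase gene, rose by 1.52 in the rtt109 deletion. ALD6, a cytosolic aldehyde dehydrogenase gene that makes NADPH, fell by 1.61 there, from 18.3 and 17.2 to 7.75 and 4.32, and RKI1, the ribose phosphate isomerase gene, fell by 1.30. Against the rtt109 deletion the hst3 hst4 deletion had ALD6 higher by 1.60 (limma adjusted p = 0.0145), the only gene of the list past the threshold in that comparison. ZWF1, the first enzyme of the pathway, had log2 fold changes of 0.29 and 0.36.

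Of the general stress targets of Msn2 and Msn4, 10 of 21 rose in each deletion and none fell, with medians of 1.12 and 1.32. HSP12, the largest change of the list in both, had 0.596 and 4.14 in wild type, against 93.0 and 60.8 without RTT109 and 58.5 and 21.0 without HST3 and HST4. The other genes of largest change were HSP26 (3.79 and 3.55), DDR2 (3.77 and 2.82), XBP1 (2.60 in the rtt109 deletion) and GPH1 (2.65 in the hst3 hst4 deletion). XBP1 and GPH1, with wild-type means of 0.0419 and 0.101, passed the filter only through their deletion libraries, and both are among the 10 genes called higher in each deletion. The list was drawn up with earlier results of these samples known, so its count is not independent evidence of a direction. Between the deletions 0 of 21 of these genes rose and 1 fell in the hst3 hst4 deletion, the cell wall gene SPI1, by 2.10 (limma adjusted p = 0.00873). Of the 7 lists, only this one and that of NADPH supply had a gene past the threshold between the deletions. CTT1 is a textbook target of Msn2 and Msn4 and had log2 fold changes of 1.52 and 1.45.

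**Figure D4:**
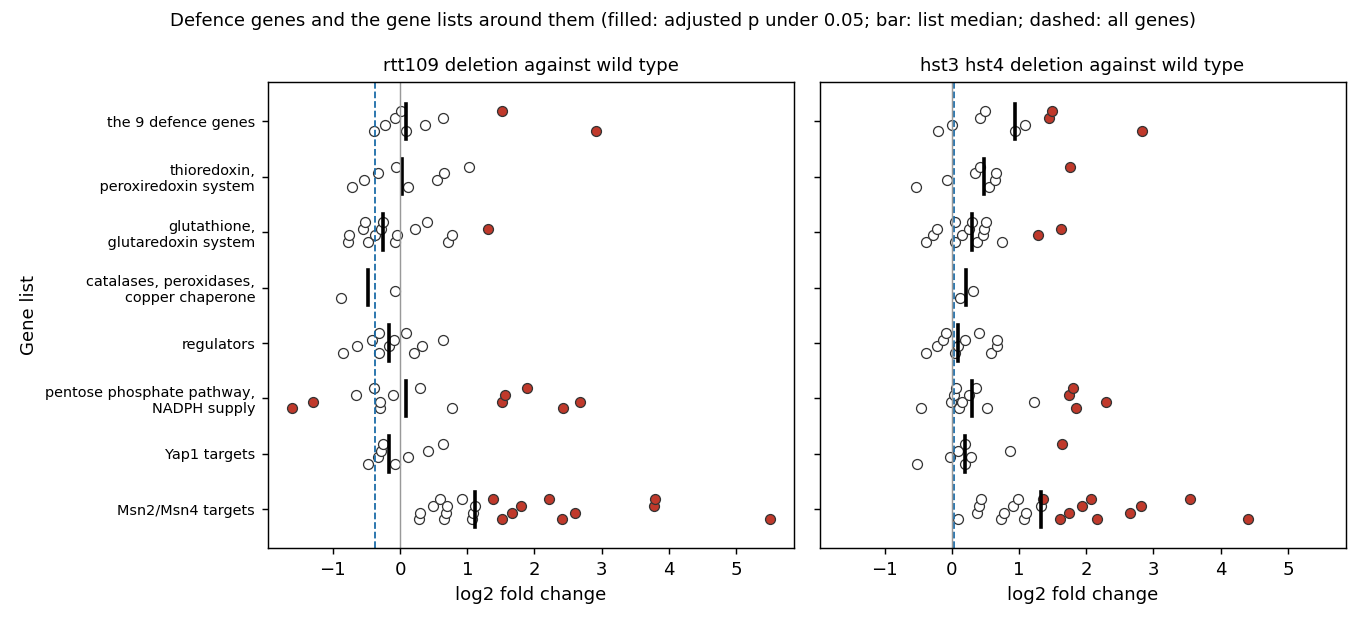
Log2 fold change (x axis) of the 9 defence genes and of the tested genes in 7 lists, in the rtt109 deletion and in the hst3 hst4 deletion against wild type; filled points had an adjusted p under 0.05, black bars are list medians and the dashed line is the median of all genes. The Msn2/Msn4 targets have 10 of 21 points filled in each panel, and the regulators have 0 of 11.

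The genes whose pattern over the 6 libraries was most like that of a called gene were found by Pearson's r of log2 levels, as a description over 6 libraries with no test. For SRX1 they were VVS1 (r = 0.986), GUT2 (0.985) and CLD1 (0.980). For CTT1 they were GAD1 (0.992), RTK1 (0.989) and MSC1 (0.985). For SOD2 they were YLR179C (0.995), VPS13 (0.982) and MIC10 (0.981). GAD1 had 0.422 and 0.284 in wild type, against 2.44 and 1.15 without RTT109 and 1.73 and 1.32 without HST3 and HST4, with its deletion libraries all above wild type, as in CTT1. YLR179C, with 7.30 and 8.10, 9.88 and 9.57, and 11.6 and 14.3, kept the order of groups seen in SOD2. GAD1 and YLR179C were picked by r over these same libraries, so a like order follows from the choice. CLD1, at 0.191 and 0.186 in wild type and 0.221 to 0.244 in the deletions, moved far less than SRX1, since r takes no account of size.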

How the data were processed

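Stranded poly(A) libraries of 6 yeast samples in 3 groups of 2 were deposited as one table of coverage signal per strand in bins of 50 bases. Per the file headers, the authors scaled one set of columns to the spike-in and normalized another to 1. These deposited values, unit other, are neither counts nor log values. CASAVA 1.7.0 and the fission yeast assembly ASM294v2 are named in the submitters' processing notes, and for the aligner and the budding yeast build nothing was given in the sources used here. Bins with a letter in place of a value (11670 of 240976, 4.84%) were not used, and what the letter marks is not defined in the file.

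Of 6525 ORFs in the table, 5871 matched a protein-coding RefSeq gene and 5781 had a value. The offset between labels and coverage was the shift, between -700 and 300 bases, at which the ratio of the strands correlated best with the labelled strand within 50000 bases of a gene. The median r went from 0.835 to 0.864. This realignment, and the alternative with bins as labelled, were chosen after seeing the data. Sense bins of an ORF were averaged to a level, leaving out both end bins and any bin that a neighbouring ORF of the same strand also covers.

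For testing, 0.0636 was added to each level before taking log2 (percentile 5 of values above 0). The 10% of genes with the lowest mean (579) were left out, at a limit of 0.189. All 9 members passed, SRX1 only through its deletion libraries, and 108 genes tested had a wild-type mean at or under the limit. All 6 libraries entered 1 limma fit (limma 3.58.1 in R 4.3.3, 3 residual and 34.1 prior degrees of freedom). The scripts were checked on simulated data. Python 3.11.15, pandas 2.3.3 and Biopython 1.88 were used for tables and sequences.

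The genes named were the 9 members, always. From each list they were up to 4 of the largest changes past the threshold, or the 2 smallest p where none passed. The deleted genes, the mating-type markers and the 3 genes most like each called member were also named. One gene that this rule names is not reported here. The members and lists were chosen with earlier results of these data known. Sequences came from RefSeq R64 with its own coordinates. The table's labels lay a median of 19 to 31 bases above the R64 starts on 15 chromosomes, and at -321 bases on chromosome 11, so table positions were not read on R64. Replicate numbers were not used to pair the samples, since the labels name no shared batch (closing section).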

Additional observations from a re-analysis of the deposited data

Results flagged for a closer look

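TSA1 was flagged by the order of its libraries. Both rtt109 libraries (30.4 and 31.9) lay below both wild-type libraries (32.2 and 41.2). Both hst3 hst4 libraries (58.2 and 84.5) lay above wild type. Of all genes tested, 48.7% had the first order, 21.2% the second, and 51.5% had both hst3 hst4 libraries above both rtt109 libraries. The log2 fold change of TSA1 in the rtt109 deletion against wild type was -0.23. It turned to 0.07 with centred libraries and to 0.23 with the authors' columns normalized to 1. The hst3 hst4 deletion minus the rtt109 deletion was 1.17 on the log2 scale, with a limma adjusted p of 0.115, so the test of the difference itself did not pass.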

How the results depend on the processing

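Of the values of the 9 genes under alternatives, 378 kept their direction and their side of the threshold, 38 lost a call and 25 changed sign. Part of the 378 was fixed in advance. Alternatives such as the block, the intensity trend or no filter leave the log2 fold change as it is. A member that was not called had no call to lose. The numbers of members called, 2, 3 and 0 in the 3 comparisons, stayed so with all ORF bins, with an intensity trend and with bins as labelled. In the rtt109 deletion against wild type the number was 1 with centred libraries and with the last 10 bins, and 0 with 10 times the pseudocount and without the filter (796 and 985 genes at an unadjusted p under 0.05). In the hst3 hst4 deletion against wild type it was 1 with the authors' columns normalized to 1, and 0 with centred libraries, with 10 times the pseudocount, without the filter and with only the 2 groups compared (420, 312, 559 and 336 genes at an unadjusted p under 0.05). Leaving out 1 library gave 0 to 2 members called in both comparisons, and 0 in the hst3 hst4 deletion against the rtt109 deletion. The prior degrees of freedom, 34.1, were 2.48 without the filter, 3.55 with 10 times the pseudocount and 4.85 without either rtt109 library.

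Over all genes, 173 were called in the rtt109 deletion (128 higher, 45 lower). The number was 2 with 10 times the pseudocount, 4 without the filter, 286 with an intensity trend, 92 with the last 10 bins, and 3 to 280 when 1 library was left out. It had 126 higher and 154 lower without wild-type replicate 1. With the authors' columns normalized to 1 it had 246 higher and 9 lower, and with centred libraries 155 and 10. In the hst3 hst4 deletion against wild type 127 were called (121 higher, 6 lower), with 47 for centred libraries, 1 for 10 times the pseudocount, 3 without the filter, 7 with only the 2 groups compared, and 7 to 124 when 1 library was left out. Between the deletions 78 were called (45 higher, 33 lower). The number was 28 with columns normalized to 1 (3 higher, 25 lower), 15 with centred libraries (2 and 13), 0 with 10 times the pseudocount (683 at an unadjusted p under 0.05), 3 without the filter, 167 with an intensity trend, 6 with the last 10 bins, and 2 to 99 when 1 library was left out. The causes were not tested.

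The labels name no batch shared by libraries of the same replicate number, and these values cannot tell whether there was one. The correlation of deviations of same-numbered libraries was -0.225 between wild type and the rtt109 deletion. It was 0.068 between wild type and the hst3 hst4 deletion, and 0.234 between the deletions. With the replicate number as a block, 97, 88 and 6 genes and 2, 2 and 0 members were called. A crossed pairing of wild type and the rtt109 deletion, added after seeing the data, called 188 genes and 2 members.

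Log2 fold changes changed sign as follows, each in a comparison where that member was not called in the fit reported. In the rtt109 deletion against wild type, the authors' columns normalized to 1 gave TRX2 0.04, TSA1 0.23 and SOD1 0.34, and centred libraries gave TSA1 0.07 and SOD1 0.22. In the hst3 hst4 deletion against wild type, centred libraries gave TRX2 -0.08. Between the deletions, columns normalized to 1 gave TSA2 -0.03, centred libraries gave TSA2 -0.05, and the last 10 bins gave CTT1 0.03. Leaving out 1 library gave, against wild type in the rtt109 deletion, TSA2 -0.13 to 0.32, GPX2 -0.44 to 0.46, AHP1 -0.04 to 0.77 and SOD1 -0.29 to 0.12. In the hst3 hst4 deletion it gave TRX2 -0.42 to 0.44 and GPX2 -0.66 to 0.24. Between the deletions it gave SRX1 -1.05 to 0.90, TRX2 -0.04 to 0.82, CTT1 -0.59 to 0.46 and GPX2 -0.64 to 0.20. Coverage holds no read counts, so counting error per gene is unknown.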
